A study of Caenorhabditis elegans with 2 samples.

Results

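Of the 30000 ChIP-seq entries in the list pooled from both replicates, 1254 overlapped by 1 bp or more a Caenorhabditis elegans gene annotated as ncRNA, which is the most numerous class of noncoding gene models after the piRNAs. Entries were chosen by that overlap alone, with the biotype ncRNA of the WBcel235 gene models. The models keep tRNA, snRNA, snoRNA, miRNA, piRNA, lincRNA and antisense_RNA genes under biotypes of their own. The signal of an entry played no part in the overlap rule. The entries and lists were, however, chosen with earlier results of these data known. The assay was chromatin immunoprecipitation against eGFP-tagged ZAG-1 in whole larvae of mixed sex at the L1 stage. All animals were of strain OP83, which carries the mutation unc-119(ed3) and the insertion wgIs83 that targets zag-1. There were 2 biological replicates in 1 group, so no comparison between conditions could be made, and whole animals do not show in which cells a region was bound. The sources used here do not state the number of reads per library. Most entries of the pooled list are peaks or background that were not called bound.

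ZAG-1 is a zinc finger homeodomain protein of the ZEB class, which acts in the differentiation of neurons, and ZEB proteins are known to bind E-boxes of the form CAGGTG or CAGGTA. The biotype ncRNA is a residual class: it holds short transcripts with no coding potential that fit none of the better known RNA families, together with a few RNAs of known function such as the RNA of RNase P. There were 7764 such genes on the 6 chromosomes analysed, with a median length of 140 bp, and 7750 of them had no symbol of letters and a number. By position, 4203 lay outside protein-coding genes, 1728 in introns on the opposite strand, 987 in introns on the same strand, and 846 overlapped a protein-coding exon. The X chromosome held 2520 of them (32.5%). No function is annotated for genes known by a sequence name in the models used, and none is given here.

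The windows below show what the sequence looks like at entries over ncRNA genes. They are the 4 highest ranked with a match to GAGAGA or CGTCTC, the highest ranked without either, and a window from the middle of the ranking. Windows that touch a protein-coding exon or an entry over another small RNA gene were not drawn on. Each window reaches 100 bp to either side of the summit on the plus strand of ce11, from the RefSeq copy of WBcel235, and capitals mark GAGAGA and CGTCTC on either strand.
C08F8.13 (chrIV:11149705-11149905): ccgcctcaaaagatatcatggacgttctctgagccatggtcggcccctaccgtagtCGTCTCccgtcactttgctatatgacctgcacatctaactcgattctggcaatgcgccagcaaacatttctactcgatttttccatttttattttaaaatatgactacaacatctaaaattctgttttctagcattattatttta
AH9.7 (chrX:2242888-2243088): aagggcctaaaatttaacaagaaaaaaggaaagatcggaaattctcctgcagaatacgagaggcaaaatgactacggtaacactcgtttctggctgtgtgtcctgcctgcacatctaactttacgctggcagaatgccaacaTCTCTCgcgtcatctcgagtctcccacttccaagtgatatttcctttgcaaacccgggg
F22E12.9 and F22E12.10 (chrV:10466706-10466906): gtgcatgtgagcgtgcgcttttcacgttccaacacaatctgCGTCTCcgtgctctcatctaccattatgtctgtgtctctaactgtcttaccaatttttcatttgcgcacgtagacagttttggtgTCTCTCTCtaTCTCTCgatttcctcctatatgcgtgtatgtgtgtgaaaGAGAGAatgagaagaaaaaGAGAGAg
F26D10.23 (chrIV:17278465-17278665): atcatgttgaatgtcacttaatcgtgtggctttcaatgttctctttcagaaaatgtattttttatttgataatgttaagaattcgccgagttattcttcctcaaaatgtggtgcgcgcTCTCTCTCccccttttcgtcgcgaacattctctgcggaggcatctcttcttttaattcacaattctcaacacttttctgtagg
LLC1.120 (chrIV:14464169-14464369): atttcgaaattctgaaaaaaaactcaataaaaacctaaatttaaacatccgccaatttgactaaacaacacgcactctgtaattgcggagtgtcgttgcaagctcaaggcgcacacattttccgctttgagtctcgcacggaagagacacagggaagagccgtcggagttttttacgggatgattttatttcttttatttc
W04D2.12 (chrV:12488146-12488346): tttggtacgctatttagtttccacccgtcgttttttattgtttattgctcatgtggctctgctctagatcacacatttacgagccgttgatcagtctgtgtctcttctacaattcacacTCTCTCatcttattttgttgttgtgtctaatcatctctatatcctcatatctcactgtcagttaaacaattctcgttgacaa
The window at F22E12.9 and F22E12.10 held 32 marked bases, the most of the 6, at a GC content of 43.8%. The window at LLC1.120 held none, although its entry had the higher signal. The window at W04D2.12, in an intron of inx-11, belonged to an entry with a signal of 11.4 at rank 10721, and it held a match too. A match was thus present at a low rank and absent at a high one among these 6.

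Entries over ncRNA genes stood high in the pooled list and were frequent among called peaks. The signal is the authors' own value per entry, on a scale the sources used here do not state, and rank 1 is the highest. The median rank was 10737 (quartiles 3199 and 19805) for entries over ncRNA genes and 15152 (quartiles 7686 and 22586) for the other 28746. The optimal list, which is named as thresholded on the irreproducible discovery rate, holds 1.59% of the pooled entries. It held 85 of the 1254 entries over ncRNA genes (6.78%, 95% Wilson interval 5.51 to 8.31) and 393 of the other 28746 (1.37%, interval 1.24 to 1.51). The 2 intervals do not overlap, and no test was made, since entries that share a gene or overlap each other are not independent. The 85 entries made up 17.8% of the optimal list, whereas entries over ncRNA genes made up 4.18% of the pooled list. Intervals cover counting error only.

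The excess was not limited to the called peaks. In the upper 1000 ranks, 144 of the entries over ncRNA genes were found (11.5%), against 2.98% of the others and 3.33% of all pooled entries. In the upper 5000 ranks there were 398 (31.7%), against 16.0% of the others and 16.7% of all. By tier of rank, entries over ncRNA genes were 17.8% of the ranks that form the optimal list, 11.3% of those from there to rank 1000, 6.35% of those from there to 5000, 3.72% of those from there to 15000 and 3.23% of the remaining 15000 ranks. Their share thus fell with each tier. Among the called peaks themselves the signal was similar, with a median of 36.7 and a maximum of 95.5 for the 85, against a median of 38.3 and a maximum of 179.6 for the other 393.

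**Figure D1:**
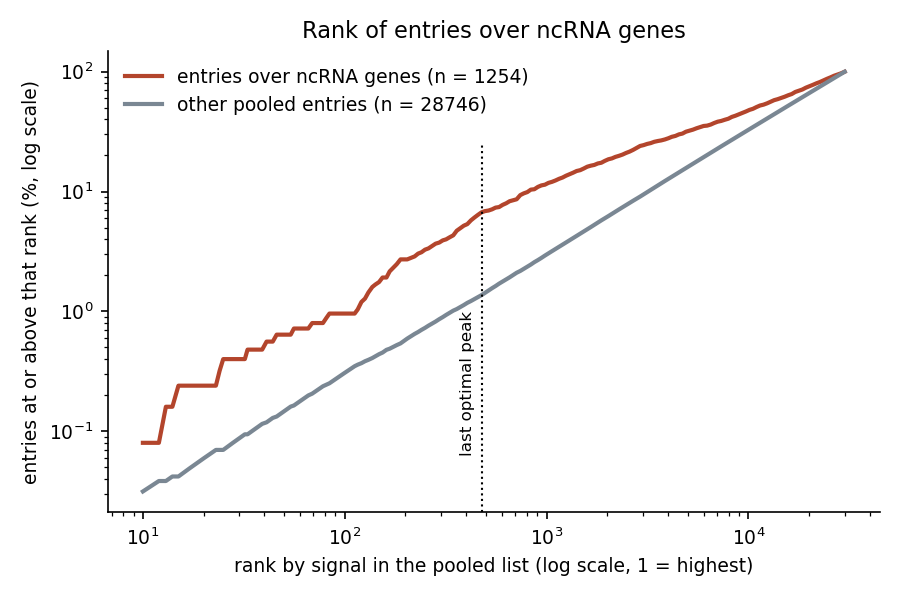
Share of entries at or above each rank by signal in the pooled list, both axes on log scales, for the 1254 entries over ncRNA genes and the other 28746. The dotted line is the rank of the last optimal peak, where the curves stand at 6.78% and 1.37%.

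Position near the start of a protein-coding gene differed little between the groups. The TSS window was taken to reach 500 bp either way from the start of any protein-coding transcript in the models. It held the summit of 353 of the 1254 entries over ncRNA genes (28.1%, 95% Wilson interval 25.7 to 30.7) and of 25.9% of the others (interval 25.4 to 26.5). The median distance to the nearest start was 1238 bp for entries over ncRNA genes and 1216 bp for the others. Inside the window 36 of 353 entries over ncRNA genes were optimal peaks (10.2%, interval 7.46 to 13.8), against 2.76% of the others there. Outside it 49 of 901 were (5.44%, interval 4.14 to 7.12), against 0.878% of the others. The share of called peaks was higher for entries over ncRNA genes on both sides of the window's edge. With a window of 250 bp the values were 14.1% of entries over ncRNA genes (interval 12.3 to 16.2) and 14.4% of the others. The order turned, but the interval includes the share of the others.

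GC content differed more. Within 100 bp of the summit it averaged 38.2% ± 7.48 (SD over 1254 entries) at ncRNA genes and 32.8% ± 6.36 (SD over 28746 entries) elsewhere. When the pooled list was divided into 5 classes of equal size by GC content, the class of highest values, from 38.3% upwards, held 614 of the entries over ncRNA genes and 5386 of the others. In that class 71 of 614 entries over ncRNA genes were optimal peaks (11.6%, 95% Wilson interval 9.27 to 14.3), against 5.55% of the others (interval 4.97 to 6.20). In the class next to it the shares were 4.44% (11 of 248, interval 2.49 to 7.77) and 1.06% (interval 0.827 to 1.36). In the class of lowest GC content none of 90 entries over ncRNA genes was an optimal peak, for which the limit of 3 counts is 3.33% and the Wilson interval reaches 4.09%, and 0.0338% of the others were. Called peaks were thus concentrated at high GC content in both groups. In the 2 classes of highest GC content the intervals of the groups do not overlap, while in the lower 3 the entries over ncRNA genes had 3 called peaks in all.

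**Figure D2:**
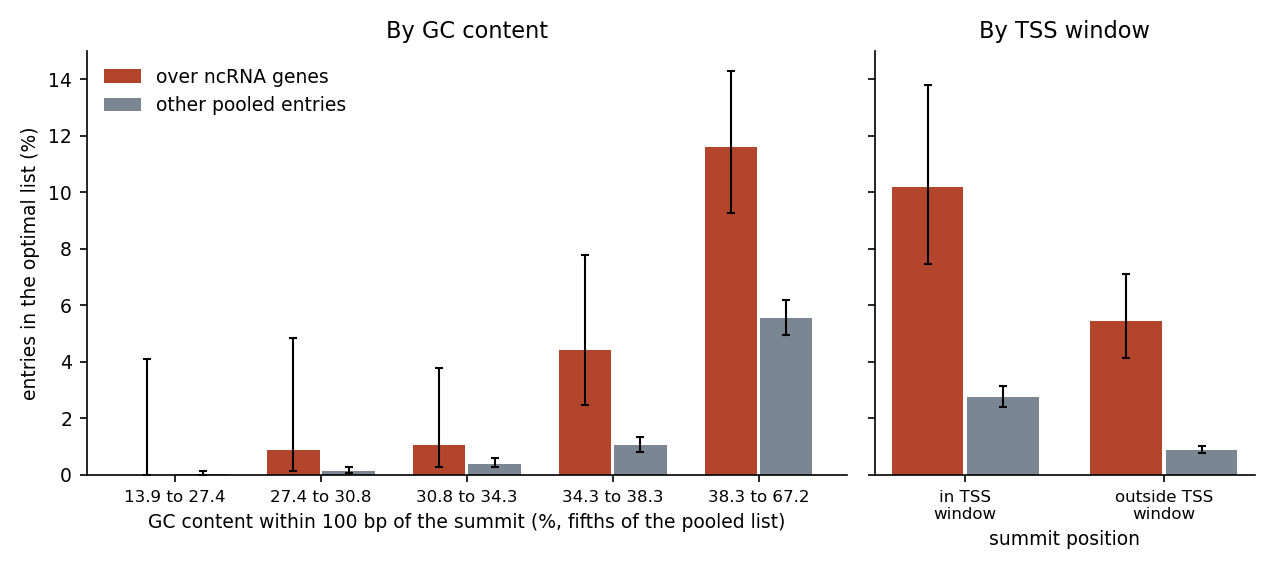
Share of entries in the optimal list, for entries over ncRNA genes and other pooled entries, by GC content within 100 bp of the summit, in 5 classes of equal size (left) and by TSS window (right). The vertical axes give percent. Error bars are 95% Wilson intervals. Entries over ncRNA genes reached 11.6% in the class of highest GC content, against 5.55% of the others.

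The number of called peaks expected from position and GC content was obtained from the other entries. Each entry over an ncRNA gene was given the share of optimal peaks among the other entries of its own class, and these shares were added up. With no classes 17.1 peaks were expected, and 85 were observed, a ratio of 4.96. Classes by TSS window gave 17.7 expected and a ratio of 4.81. Classes by GC content in 10 bins gave 42.9 expected and a ratio of 1.98. Both together, in 20 classes, gave 42.5 expected and a ratio of 2.00 (95% exact Poisson interval of the observed count 1.60 to 2.47). The ratio fell as the GC bins became finer, and with TSS window it was 2.28 with 5 bins, 1.84 with 20 and 1.73 with 50, the last chosen after seeing the data. The ratio was thus far lower with GC content than with position, and the observed count stayed above the expected one. With deeper cuts of the list, which hold the 85 called peaks too, the observed count was also above the expected one. The upper 1000 ranks had 144 entries against 80.5 expected from both (ratio 1.79), and the upper 5000 had 398 against 256 (ratio 1.55).

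The median rank was moved less by these classes. With the other entries weighted to the TSS-window and GC classes of the entries over ncRNA genes, their median rank was 14413, and 15152 without weights. The entries over ncRNA genes stood at 10737.

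Summits in protein-coding exons were spread unevenly over the 2 groups. Among entries over ncRNA genes 7.02% of summits lay in a protein-coding exon, and among the others 19.6% did. In the class of highest GC content the values were 5.54% and 30.4%. With the summit in an exon, 2 of 88 entries over ncRNA genes were optimal peaks (2.27%, 95% Wilson interval 0.625 to 7.91), against 0.337% of the others. In the class of highest GC content 2 of 34 such entries over ncRNA genes were (5.88%, interval 1.63 to 19.1), against 0.917% of the others. Outside exons in the same class, 69 of 580 entries over ncRNA genes were (11.9%, interval 9.51 to 14.8), against 7.57% of the others (interval 6.77 to 8.46). With exon position added to the classes, a choice made after seeing the data, 54.2 peaks were expected and the ratio was 1.57. Among entries that overlap no protein-coding gene at all, 54 of 682 entries over ncRNA genes were optimal peaks (7.92%), against 212 of 10806 of the others. Here 38.8 were expected from TSS window and GC content, a ratio of 1.39 (95% exact Poisson interval 1.04 to 1.81). With 20 GC bins in place of 10 it was 1.32, with an interval of 0.995 to 1.73 that reaches below 1. The ratio was thus lower with exon position added, and lower among entries off protein-coding genes, where introns are left out as well as exons. Both settings off protein-coding genes were chosen after seeing the data, and the part of other sequence or chromatin features was not tested.

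**Figure D3:**
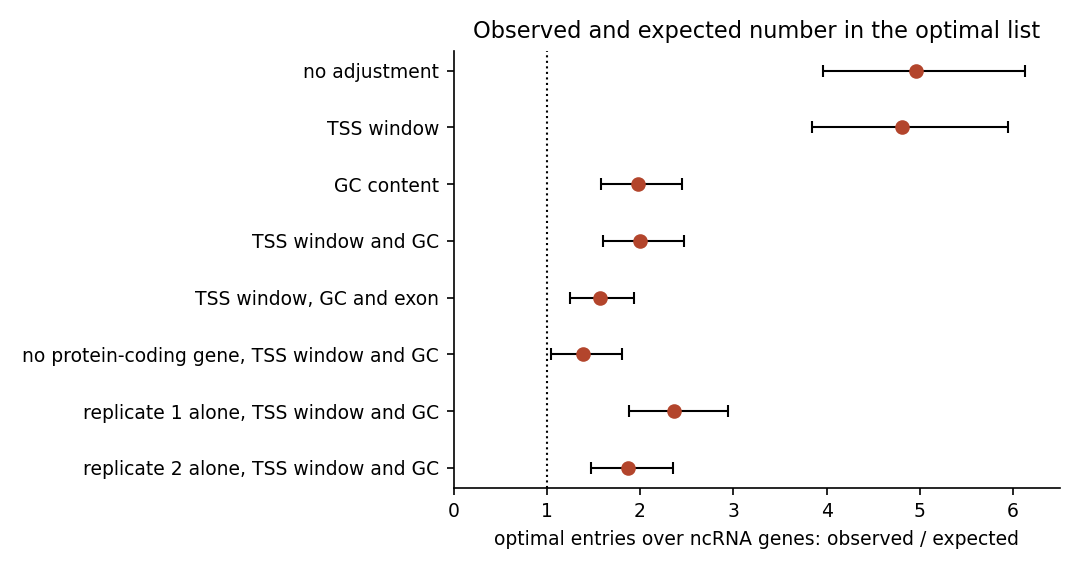
Observed over expected number of optimal peaks among entries over ncRNA genes, with the classes used for the expectation on the vertical axis and the ratio on the horizontal one. Error bars are 95% exact Poisson intervals of the observed count, and the dotted line marks a ratio of 1. The ratio was 4.96 with no classes, 2.00 with TSS window and GC content, and 1.39 among entries that overlap no protein-coding gene.

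Both replicates showed the excess in their own lists, from which the pooled list is not independent. In replicate 1, 1261 of 30000 entries overlapped an ncRNA gene and 81 of them were among its top ranks, taken as many deep as the optimal list is long (6.42%, 95% Wilson interval 5.20 to 7.91), against 1.38% of the others. In replicate 2 the numbers were 75 of 1315 (5.70%, interval 4.57 to 7.09) and 1.40%. The median ranks of entries over ncRNA genes were 12147 in replicate 1 and 11442 in replicate 2, against 15108 and 15166 for the others. With TSS window and GC content as classes the ratio of observed to expected was 2.36 in replicate 1 (34.3 expected) and 1.87 in replicate 2 (40.0 expected). The entries are wider in replicate 2 (376 bp) than in replicate 1 (344 bp), which gives them more room to overlap a gene. The part of that width in the counts was not tested.

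Of the 85 called peaks over ncRNA genes, 47 (55.3%) overlapped an entry among the top ranks of replicate 1, 63 (74.1%) one of replicate 2 and 33 (38.8%) one of both. For the other 393 called peaks these shares were 59.3%, 76.8% and 43.8%. Among the top ranks of neither replicate were 8 of the 85 (9.41%) and 30 of the 393 (7.63%). Any entry of replicate 1 was found at 81 of the 85, and any entry of replicate 2 at all 85. The best overlapping entry had a median rank of 389 in replicate 1 and 230 in replicate 2. Replicate 2 thus ranked these regions higher than replicate 1 did, as it did for the other called peaks, with medians of 316 in replicate 1 and 254 in replicate 2.

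The 20 entries of highest signal over ncRNA genes all belonged to the optimal list, with signals down to 47.2, and 17 of them overlapped the top ranks of both replicates. In 17 the ncRNA gene lay outside protein-coding genes, and 9 had the summit in a TSS window. Their GC content ranged from 33.8% to 62.2%. The highest was over R12E2.18 (103 bp, minus strand), with a pooled signal of 95.5 at rank 8, and signals of 25.5 at rank 53 in replicate 1 and 66.7 at rank 8 in replicate 2. It also overlapped sls-2.4, a gene for a spliced leader RNA of the SL2 type, which caps the downstream messages of operons. LLC1.120 followed, 248 bp from the start of dld-1 (dihydrolipoamide dehydrogenase), with a pooled signal of 86.5 at rank 13, 24.9 in replicate 1 and 59.2 in replicate 2. These regions were high in both replicates.

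The entry over C08F8.13, 301 bp from the start of F01G4.6, had a pooled signal of 84.9. It ranked 2 in replicate 1 with a signal of 51.1, and 235 in replicate 2 with a signal of 26.6. The replicates thus differed in where they placed it, though both had it among their top ranks. AH9.7, a longer gene of 1353 bp on the X chromosome, had an entry of signal 73.4 that ranked 20 in replicate 1 and 47 in replicate 2. Only 45 bp of that entry lay over AH9.7. It also overlapped the lincRNA gene linc-78, and it lay 370 bp from the start of rpl-11.2, a large-subunit ribosomal protein gene.

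Next came the entry over F22E12.9 and F22E12.10, with a signal of 69.0 and ranks of 56 in replicate 1 and 28 in replicate 2, with its summit 1711 bp from the start of egl-9, the prolyl hydroxylase gene of the hypoxia response. The entry over F26D10.23, 394 bp from hsp-1 (an Hsp70 chaperone), had a pooled signal of 66.0. It ranked 472 in replicate 1 and 20 in replicate 2, near the end of the top ranks in replicate 1. F31F7.5, F31F7.6 and F31F7.8 shared an entry of signal 64.1 that lay 371 bp from mrck-1. Y15E3A.8 and Y15E3A.13 shared one of signal 60.0 (nearest start nfki-1), and W08E3.5 had one of signal 57.0 (nearest start casc-3). All 3 were among the top ranks of both replicates.

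The entry over B0350.67 and B0350.84, with a signal of 54.1, was 1272 bp from a start of unc-44, the ankyrin gene of axon guidance, and ranked 60 in replicate 1 and 204 in replicate 2. The entry over C51E3.11, with a signal of 49.9, was 1086 bp from egl-3, whose product cleaves neuropeptide precursors, and ranked 113 in replicate 1 and 111 in replicate 2. Only 12 bp of it lay over C51E3.11. The 2 entries over C17C3.23 also belonged to the 20, with signals of 73.5 at rank 24 and 53.7 at rank 84, and had the insulin-like gene ins-13 as nearest start. Others lay over C56C10.14 and C56C10.15 (signal 49.0, near icd-1), C05B10.19 and C05B10.21 (48.9, 3672 bp from lip-1, a MAP kinase phosphatase gene), T10B5.13 (48.9, near T10B5.4), R03G5.8 (48.2, near the elongation factor gene eef-1A.2), C28G1.8 and C28G1.9 (47.8, at C28G1.2 and over a tRNA gene), and F54F2.13 (47.2, in an intron of zfp-1). The entry ranked last of the 20 overlapped 3 ncRNA genes of clone Y37A1B and had a signal of 47.2.

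Of the 20, 3 lay outside the top ranks of 1 replicate. C05B10.19 ranked 2070 in replicate 1 and 44 in replicate 2, and T10B5.13 ranked 1010 in replicate 1 and 79 in replicate 2. F54F2.13, in an intron of the PHD finger gene zfp-1 on the opposite strand, ranked 16 in replicate 1 and 3521 in replicate 2. The entry on clone Y37A1B stood apart by its sequence, with a GC content of 62.2%, and by its place 9963 bp from the nearest protein-coding start.

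**Figure D4:**
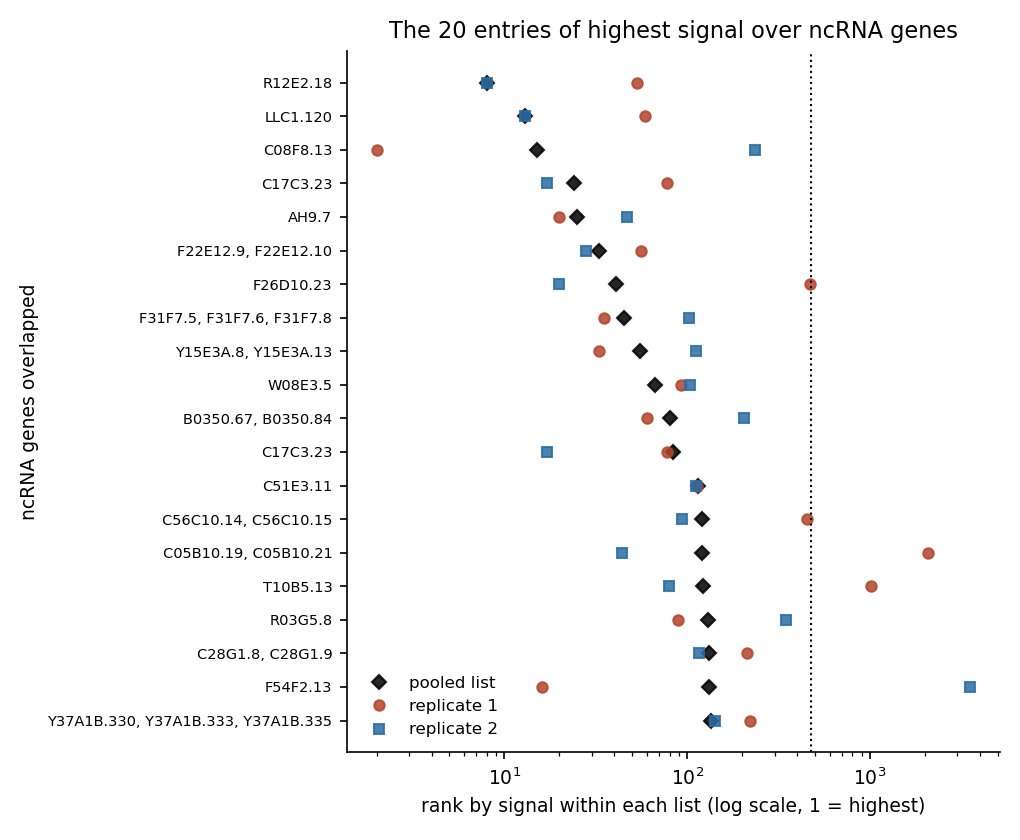
Rank by signal (log scale, 1 = highest) of the 20 highest entries over ncRNA genes in the pooled list, replicate 1 and replicate 2, with the best overlapping entry taken in each replicate. The dotted line is the number of peaks in the optimal list. The marks for C05B10.19 and T10B5.13 in replicate 1 and F54F2.13 in replicate 2 lie beyond it.

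The 85 called peaks overlapped 113 ncRNA genes and formed 81 loci when peaks within 1000 bp were merged. Only C17C3.23 and R12E2.18 had 2 called peaks each, and both sit beside a spliced leader RNA gene, sls-2.2 and sls-2.4. The 2 peaks over C17C3.23, at 1307 and 1107 bp from the start of ins-13, overlapped the same entry of each replicate (rank 77 in replicate 1, 17 in replicate 2). The peaks over R12E2.18 had signals of 95.5 and 43.5. They too shared 1 entry of each replicate, so that neither pair gives independent regions. The last entry over an ncRNA gene inside the optimal list was at C14F11.14 on X, with a signal of 29.6, the last of the whole list, and the first outside was at C38H2.4 on III, with a signal of 29.3 at rank 494. The entry at C38H2.4 ranked 199 in replicate 2 and overlapped no entry of replicate 1.

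Other small RNA genes lay under some of these entries. A tRNA, snRNA, snoRNA, miRNA, piRNA or rRNA gene was overlapped by 157 of the 1254 (12.5%), against 5.49% of the other pooled entries, and by 16 of the 85 called peaks (18.8%), against 2.29% of the other called peaks. Of the 16, 7 lay over tRNA genes, 7 over snRNA genes, 1 over an snoRNA gene and 1 over a piRNA gene. Those over snRNA genes include both pairs of peaks at C17C3.23 and R12E2.18, so they are not all independent regions. The 1097 entries that overlapped none of these held 69 called peaks (6.29%), and their ratio of observed to expected was 1.89. The share and the ratio were thus nearly as large without the other small RNA genes.

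The share of called peaks was highest at ncRNA genes outside protein-coding genes, an order that the other pooled entries shared. Taking for each entry the ncRNA gene it overlaps most, 64 of 758 entries at genes outside protein-coding genes were optimal peaks (8.44%, 95% Wilson interval 6.67 to 10.6). For ncRNA genes in introns on the opposite strand the share was 5.04% (13 of 258, interval 2.97 to 8.43), in introns on the same strand 3.31% (4 of 121, interval 1.29 to 8.19), and at genes that overlap a protein-coding exon 3.42% (4 of 117, interval 1.34 to 8.46). The last 3 intervals overlap that of genes outside protein-coding genes. Mean GC content was alike in these classes, from 37.8% to 38.3%. The TSS window held 57.3% of summits at genes that overlap an exon and 21.7% to 26.8% in the other classes. Among all entries that overlap a protein-coding gene, 5.42% of those over ncRNA genes were called, against 1.01% of the others. Among entries that overlap none the shares were 7.92% and 1.96%, so the order was not particular to ncRNA genes. Among the introns with a called peak were those of the calcineurin gene tax-6, the heterochronic gene lin-14, the casein kinase gene kin-20 and cla-1, which encodes an active zone protein. These 4 genes are named after their values were seen. The peaks at tax-6 and lin-14 were among the top ranks of both replicates. The peak at kin-20 ranked 7486 in replicate 1 and 91 in replicate 2. The peak at cla-1 overlapped no entry of replicate 1 and ranked 173 in replicate 2.

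Per gene, 1443 of the 7764 ncRNA genes (18.6%) were overlapped by a pooled entry and 113 (1.46%) by a called peak. Outside protein-coding genes 890 of 4203 (21.2%) had a pooled entry and 88 (2.09%) a called peak. Genes of 200 bp or more had a called peak in 31 of 1449 cases (2.14%) and shorter ones in 82 of 6315 (1.30%). Among genes overlapped by a pooled entry, 9.34% of the longer and 7.38% of the shorter ones had a called peak. The longer genes offer more room for an overlap, and the part of length was not tested. The ncRNA genes themselves had a mean GC content of 42.9%, and the 113 with a called peak one of 47.0%.

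The 14 ncRNA genes with a symbol rather than a sequence name had no called peak, where 1.46% of all ncRNA genes had one, so that a count of 0 among so few genes shows no difference. Of these, 4 were overlapped by a pooled entry, where 18.6% of all ncRNA genes were. The entry at rpr-1, which encodes the RNA of RNase P, had a signal of 16.8 at rank 2621. Entries over the srpr-1.1 and srpr-2.2 genes had signals of up to 13.7 at rank 5735 and 11.6 at rank 9968, and linc-171 had one of 10.6 at rank 13079. The starvation-responsive RNA gene rncs-1, the Y RNA gene yrn-1, the RNase MRP RNA gene mrpr-1 and tts-1 had no pooled entry.

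By chromosome, the share of called peaks among entries over ncRNA genes was 13.0% on I (18 of 138, 95% Wilson interval 8.41 to 19.7), 2.61% on II (4 of 153, interval 1.02 to 6.53), 7.69% on III (10 of 130), 7.96% on IV (16 of 201), 5.20% on V (13 of 250) and 6.28% on X (24 of 382). The other pooled entries had 1.94%, 1.47%, 1.91%, 1.24%, 0.810% and 1.09% in the same order. Entries over ncRNA genes had the higher share on each chromosome, though on II the interval reached below the share of the other entries. On X, where ncRNA genes are most numerous, they made up 6.47% of all pooled entries.

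Summits lay around and within the ncRNA genes. Entries of 344 bp were chosen for touching such a gene, so their summits had to lie in or near it. Whether any place in the gene was preferred was not tested. The median summit was 80.5 bp downstream of the 5′ end of the ncRNA gene overlapped most, and 63.0 bp for the 85 called peaks. A summit inside an ncRNA gene was found in 461 entries, of which 40 (8.68%, 95% Wilson interval 6.44 to 11.6) were called peaks, against 45 of the 793 with the summit outside (5.67%, interval 4.27 to 7.51). GC content moved with this, at 40.7% for summits inside and 36.8% for summits outside, and its part in the difference was not tested. Entries with under 50 bp over the gene were called in 4 of 210 cases (1.90%), those with 50 to 99 bp in 6.23% and those with 100 bp or more in 8.59% (58 of 675, interval 6.71 to 10.9). Their mean GC content was 34.2%, 37.6% and 39.8%. Of the called peaks, 50 of 85 (58.8%) contained the whole ncRNA gene, against 43.8% of the other entries over ncRNA genes.

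**Figure D5:**
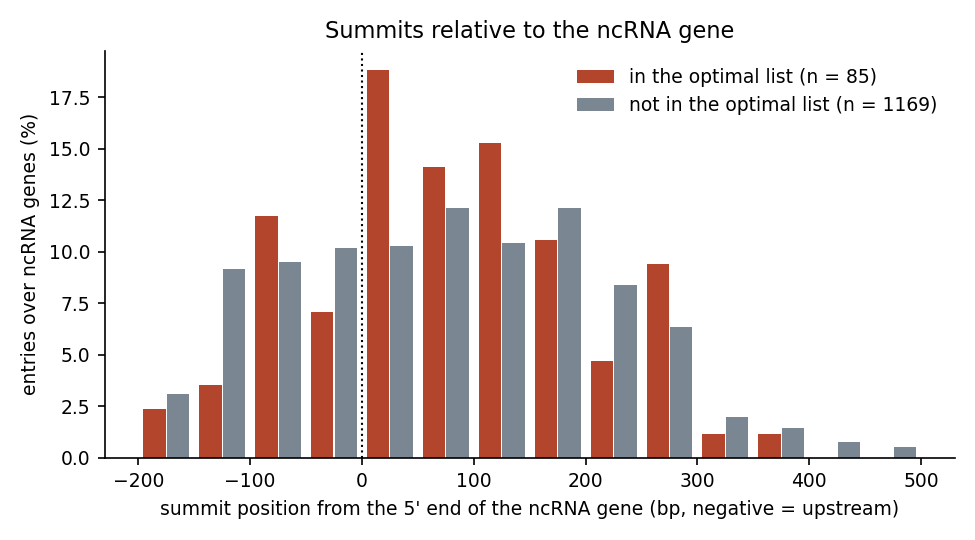
Position of the summit from the 5′ end of the ncRNA gene overlapped most, in bins of 50 bp, as a share of the 85 entries in the optimal list and of the 1169 that are not. Both spread from upstream of the gene to beyond its 3′ end, and 43 entries at distances beyond 500 bp are not drawn.

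In the TSS window the ncRNA gene ran on the opposite strand to the protein-coding gene in 241 entries and on the same strand in 112. Called peaks made up 9.96% (95% Wilson interval 6.78 to 14.4) of those on the opposite strand and 10.7% (interval 6.24 to 17.8) of those on the same strand. These intervals nearly coincide. The number of ncRNA genes under an entry was 1 in 998 cases, 2 in 235 and 3 or more in 21, and the shares of called peaks were 6.11%, 7.66% and 28.6%, the last from 6 of 21.

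The letters GAGAGA and CGTCTC were looked for on either strand, up to 100 bp from each summit. The reverse complement of CGTCTC is GAGACG, so that its matches can overlap those of GAGAGA. The first was in 41 of the 85 called peaks over ncRNA genes (48.2%, 95% Wilson interval 37.9 to 58.7) and in 49.6% of the other called peaks. It was in 25.3% of the entries over ncRNA genes that were not called, against 11.8% of other pooled entries that were not called, and in 12.9% of all pooled entries. CGTCTC was in 30.6% (interval 21.8 to 41.0) of the called peaks over ncRNA genes, 37.7% of the other called peaks and 6.24% of all pooled entries. Called peaks over ncRNA genes thus had these letters about as often as other called peaks did, within the intervals. Entries over ncRNA genes had GAGAGA more often even below the called ones. Mean GC content was 37.7% in those uncalled entries and 32.8% in all entries not over ncRNA genes, and its part was not tested. Where neither GAGAGA nor CGTCTC was present, 33 of 843 entries over ncRNA genes were called (3.91%, interval 2.80 to 5.45), against 0.620% of the others. With the presence of either added to the TSS-window and GC classes, after seeing the data, 49.6 peaks were expected and the ratio was 1.71.

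The E-box forms known for ZEB proteins were rare. CAGGTG was in 2 of the 85 called peaks over ncRNA genes (2.35%, 95% Wilson interval 0.648 to 8.18), 1.78% of the other called peaks and 3.91% of all pooled entries. CAGGTA was in 0 of the 85, for which the limit of 3 counts is 3.53% and the Wilson interval reaches 4.32%. It was in 2.04% of the other called peaks and in 4.23% of all pooled entries, a share that the Wilson interval includes. CAGCTG was in 4.71% of the called peaks over ncRNA genes and 5.09% of the others. TTTTTTTT was in 8.24% of the called peaks over ncRNA genes (7 of 85, interval 4.05 to 16.0), 16.5% of the other called peaks (interval 13.2 to 20.5) and 28.3% of all pooled entries. For TTTTTTTT the share of the other called peaks lay outside the interval of the called peaks over ncRNA genes, though the 2 intervals overlap.

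Entries over other noncoding genes differed among themselves. Of the 272 entries over tRNA, snRNA or snoRNA genes, 126 also overlapped an ncRNA gene. Of the 272, 22 were called peaks (8.09%, 95% Wilson interval 5.40 to 11.9), their mean GC content was 40.8% and the ratio of observed to expected from TSS window and GC content was 1.67. Of these 22 peaks, 15 are themselves entries over ncRNA genes, which is most of this class but a small part of the 85 over ncRNA genes. The 2 classes thus cannot be compared as separate groups. Of the 130 entries over lincRNA or antisense_RNA genes 6 were called (4.62%, interval 2.13 to 9.70), with a mean GC content of 34.6%. Against 2.82 expected from TSS window and GC content the ratio was 2.13, and no interval was computed for it. Of the 1437 entries over piRNA genes 1 was called (0.0696%, interval 0.0123 to 0.393), with a mean GC content of 28.7% and a ratio of 0.157. The interval for entries over ncRNA genes, 5.51 to 8.31, overlaps that of the lincRNA or antisense_RNA class, with which 12 entries are shared, and lies above that of the piRNA class, with which 25 are shared. Of the called peaks, 2 of the 6 over lincRNA or antisense_RNA genes and the 1 over a piRNA gene also overlap ncRNA genes.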

How the data were processed

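Peak lists on ce11 were used as deposited: 30000 entries for each replicate and for both replicates pooled, named as peaks and background, and the optimal entries. Per the release notes deposited with the files, lists were derived from alignments and a control. The sources used here name no aligner, caller, version or threshold. The signal value of each entry is the authors' own, deposited with no stated scale, and was ranked within a list only. Lists on ce10 were not used, since no ce10 gene models were at hand. Read depth is unknown.

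Each optimal entry has the coordinates of a pooled entry. Gene models were Ensembl release 115 on WBcel235, the same build as ce11, and sequence came from the RefSeq copy of that assembly. GC content and motifs were read within 100 bp of the summit. Called means held by the optimal list. No test was made between groups of regions: shares have 95% Wilson intervals and counts against an expectation have exact Poisson intervals. Scripts ran in Python 3.11.15 with pandas 2.3.3 and SciPy 1.17.1, and the overlap search and the expectation were tested on simulated data. Simulated GC content acted on the called share only between bins, so its effect inside a bin was not covered. Groups came from the labels, which name 2 biological replicates. The entries and lists were chosen with earlier results of these data known. Genes were named by rule: the 20 entries of highest signal, genes with 2 or more called peaks, up to 12 genes with a symbol, and the entries on each side of the end of the optimal list. The genes tax-6, lin-14, kin-20 and cla-1 fall outside the rule and were named after their values were seen.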

Additional observations from a re-analysis of the deposited data

How the results depend on the processing

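No paired analysis was possible because there is 1 group. Alternatives on exons, chromosomes, motifs, entries off protein-coding genes and 50 GC bins were added once the data had been seen. The observed to expected ratio stayed above 1 in all 21 alternatives run (lowest 1.32, whose interval reaches 0.995). It fell to 1.57 with exon position added, to 1.39 off protein-coding genes and to 1.32 there with 20 GC bins; in these, fewer entries or other classes enter by construction. Counting entries with the summit inside the ncRNA gene left 461, with an optimal share of 8.68% and a GC content of 40.7%. An overlap of 50 bp gave a GC content of 39.0%. The share was 8.45% for ncRNA genes outside protein-coding genes, and by construction 3.11% for the higher-ranked part of the optimal list alone and 11.5% for the upper 1000 pooled entries. The TSS-window share was 44.0% within 1000 bp and 14.1% within 250 bp, where other entries had 14.4%, so the direction turned; the cause was not tested. Without a replicate the share ranged from 5.70% to 6.42%, the median rank from 11442 to 12147, the GC content from 37.6% to 39.2%, the TSS-window share from 26.2% to 27.4%, the number of entries from 1261 to 1315 and the ratio from 1.87 to 2.36. Read depth, which would set the precision of each rank, is unknown.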
